A study of Drosophila melanogaster with 12 samples.

Results

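The glutathione S-transferase (GST) family of Drosophila melanogaster was followed in a study of diet and translation. Its members were taken as every gene whose current symbol is Gst, a class letter (D, E, O, S, T or Z) and a number, on a probe set with that symbol alone. This gave 34 of the 11982 genes named on the array, with 36 probe sets. GstE9 and GstO2 had 2 probe sets each, and the brighter one by its mean over all arrays stood for the gene. There were 11 delta, 13 epsilon, 3 omega, 1 sigma, 4 theta and 2 zeta genes. All but GstD6 were bright enough to test, which left 33. GstD4 passed that filter through its level on 4% YE, since it was at background on 0.25% YE, so its difference by diet is partly built into its being tested. GstE8, an epsilon gene between GstE7 and GstE9, is not analysed here.

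GSTs are enzymes that join the tripeptide glutathione to reactive, mostly oily molecules, which makes them soluble enough to be exported. Some also isomerise, reduce or carry their substrates. The delta and epsilon classes belong to insects and other arthropods, have multiplied in gene clusters and are known for the handling of insecticides and plant toxins. Omega enzymes work through a cysteine, the sigma enzyme conjugates products of lipid peroxidation and is abundant in flight muscle, and zeta enzymes act in the breakdown of tyrosine.

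The flies were w1118 males, a white-eyed laboratory strain with no further transgene or mutation named. They were 7 to 8 days old and had spent 6 days on food with 0.25% or 4% yeast extract (YE), the protein source of the diet. About 100 whole males were ground for each replicate, so the RNA of all tissues was pooled. The extract was layered on a sucrose gradient, and RNA was collected from a high fraction, mRNAs with 5 or more ribosomes, and from a low fraction, mRNAs with 1 to 4. The 4 groups were the high fraction on 0.25% YE, the high fraction on 4% YE, the low fraction on 0.25% YE and the low fraction on 4% YE, each with 3 biological replicates on 1 array apiece, 12 arrays in all.

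Values are microarray intensities after quantile normalization, without unit, and comparisons are on the scale of log2(value + 1) with the standard error (SE) of the limma fit. A difference was called at an adjusted p under 0.05, adjusted over all 11261 probe sets tested. Because the normalization gives every array the same distribution, a value shows the standing of an mRNA among all others in that fraction and not an amount. Between 59.0% and 66.4% of probe sets per array lay above the 95th percentile of the control probe sets, here called background, and 30 of the 34 GST genes did so in all 12 arrays. Replicates 2 and 3 of a group correlated at 0.979 to 0.988 over log2 intensities, and replicate 1 with them at 0.859 to 0.943. Replicate 1 therefore stood apart in every group, and the results below are also given without it. In extracts of whole flies, fewer cells of a type and less mRNA per cell cannot be told apart.

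A set of delta and epsilon GST mRNAs was lower on 0.25% YE than on 4% YE. With the 2 fractions averaged, 9 of the 33 genes fell and none rose, 5 of them delta (GstD4, GstD5, GstD7, GstD8 and GstD10) and 4 epsilon (GstE3, GstE5, GstE6 and GstE7). Among all probe sets tested, 4.13% were called in this comparison and 2.90% were called lower. GstD4 is counted among the 9, though its fall is partly built into its being tested. The delta genes that fell, GstD4 and GstD7 left out for arrays below background, were lower by 4.26-fold to 6.01-fold. The epsilon genes that fell were lower by 1.88-fold to 3.21-fold. Of the 10 omega, sigma, theta and zeta genes 0 were called. An unadjusted limma p under 0.05 was reached by 2 of them, GstZ1 and GstZ2, and by 1773 of the 11261 probe sets. The median averaged difference was -0.46 over the 33 genes, against 0.035 over all probe sets tested, and 29 of the 33 genes had a value below 0. By class the median was -2.07 for delta (-1.71 with GstD4 at its bound), -0.57 for epsilon, -0.17 for omega, -0.27 for theta and -0.58 for zeta, and the single sigma gene stood at -0.23. Without replicate 1 the same 9 genes were still called and 16 in all were, 15 lower and 1 higher, where 10.4% of all probe sets were called lower and 11.9% higher. With the replicate number entered as a blocking factor (below, the number as a block), 12 genes were called lower, where 4.64% of all probe sets were. The high and low fractions of 1 diet and replicate number were taken to come from the same gradient. With the gradient as a random block 5 genes were called, where 271 of the 11261 probe sets were. Those lost were GstD7, GstE3, GstE5 and GstE6 (limma, adjusted p = 0.0865, 0.0884, 0.146 and 0.0885).

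**Figure D1:**
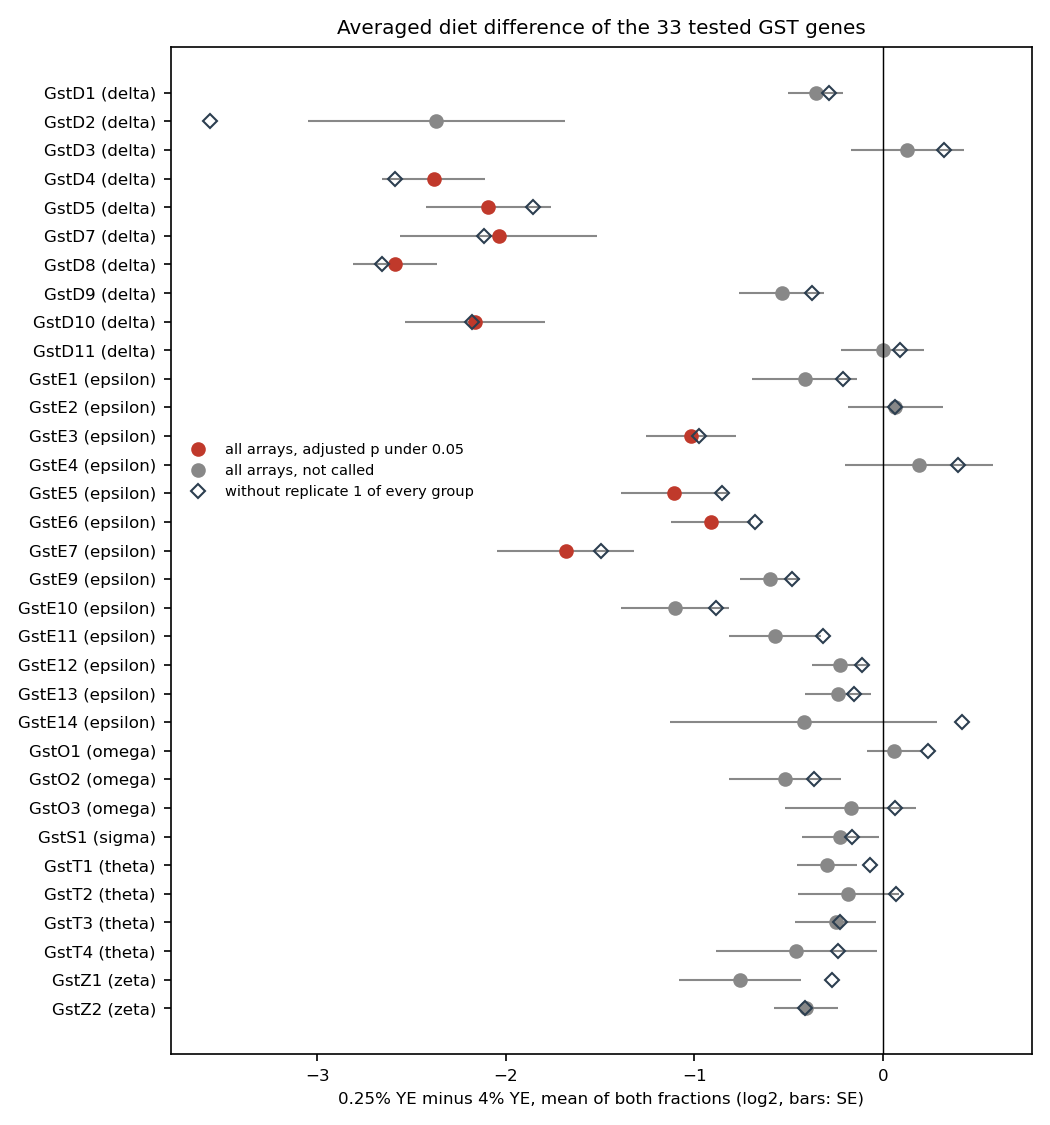
Averaged diet difference (0.25% YE minus 4% YE, mean of the high and the low fraction, log2) of each of the 33 tested GST genes, with bars for the SE. Red points are the 9 genes called, grey points those not called and open diamonds the values without replicate 1 of every group. The red points are all delta or epsilon genes, between -0.91 and -2.59, and GstD2 is the gene that moves most when replicate 1 is left out.

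Among the delta genes, GstD8 had the smallest p. It read 50.9, 51.5 and 46.3 in replicates 1, 2 and 3 of the high fraction on 0.25% YE, against 191, 258 and 228 on 4% YE. In the low fraction its values were 28.4, 49.99 and 61.9 on 0.25% YE, against 236, 455 and 462 on 4% YE. Every array on 0.25% YE lay below every array on 4% YE of the same fraction. GstD8 fell by 2.15 ± 0.31 in the high fraction (limma, adjusted p = 0.0039) and it fell by 3.02 ± 0.31 in the low fraction (adjusted p = 0.00047). Averaged, it fell by 2.59 ± 0.22 (adjusted p = 3.6e-05), a 6.01-fold lower level.

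GstD4 was close to the detection limit on the restricted diet. Its high-fraction values were 10.4, 5.71 and 10.5 on 0.25% YE, against 45.2, 51.3 and 53.9 on 4% YE. The low fraction gave 9.90, 15.8 and 6.34 on 0.25% YE, against 40.5, 60.2 and 69.9 on 4% YE. No array on 0.25% YE exceeded its background, so the fold is a bound, set by that background. GstD4 was at least 2.59-fold lower on 0.25% YE in the high fraction (limma, adjusted p = 0.0082) and at least 2.65-fold lower in the low fraction (adjusted p = 0.012). The averaged difference was called as well (adjusted p = 0.00034).

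GstD10 encodes an enzyme with some activity against DDT in vitro. Its high-fraction values were 144, 172 and 146 on 0.25% YE, against 352, 610 and 650 on 4% YE. The low fraction held 28.4, 93.9 and 142 on 0.25% YE, against 230, 576 and 627 on 4% YE. The diets did not overlap in either fraction, and replicate 1 had the lowest value in each group. Averaged, GstD10 fell by 2.16 ± 0.37 (limma, adjusted p = 0.0054), and in the low fraction alone it fell by 2.57 ± 0.53 (adjusted p = 0.039). In the high fraction the difference of -1.75 ± 0.53 was not called (adjusted p = 0.13), but it was with the number as a block (adjusted p = 0.015).

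GstD5 was the delta gene whose replicate 1 was brighter than the others on 4% YE. It read 68.6, 37.2 and 25.04 in the high fraction on 0.25% YE, against 262, 74.7 and 80.4 on 4% YE. Its low-fraction values were 31.2, 30.4 and 30.6 on 0.25% YE, against 298, 148 and 184 on 4% YE. The high fractions were separated by a small gap, between 68.6 on 0.25% YE and 74.7 on 4% YE, and the low fractions by a wide one. GstD5 fell by 2.67 ± 0.47 in the low fraction (limma, adjusted p = 0.017) and by 2.09 ± 0.33 averaged (adjusted p = 0.0034). The high-fraction difference of -1.52 ± 0.47 was not called (adjusted p = 0.15) except with the number as a block (adjusted p = 0.023).

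GstD7 read 26.5, 51.0 and 41.8 in the high fraction on 0.25% YE, against 112, 207 and 197 on 4% YE. In its low fraction the values were 10.5, 56.4 and 55.9 on 0.25% YE, against 36.8, 255 and 243 on 4% YE. Replicate 1 was the lowest array of each of the 4 groups, and in the low fraction its value on 4% YE lay among the values on 0.25% YE. Its low-fraction value on 0.25% YE was below the background of that array, 16.4, so the differences of GstD7 that use it are not exact. GstD7 fell by 2.04 ± 0.52 averaged (limma, adjusted p = 0.049). The fraction-wise differences were -2.08 ± 0.74 in the high fraction (adjusted p = 0.22) and -1.99 ± 0.74 in the low fraction (adjusted p = 0.38), and both were called with the number as a block (adjusted p = 0.013 and 0.021). The averaged call was lost when any one of 10 arrays was left out (adjusted p between 0.0569 and 0.136, differences between -1.65 and -2.23). The exceptions were replicate 3 of the low fraction on 0.25% YE and replicate 1 of the low fraction on 4% YE.

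The averaged calls of GstD4, GstD5, GstD8 and GstD10 were kept in every other analysis tried, 22 for GstD4 and GstD5 and 23 for GstD8 and GstD10. Their calls within single fractions rested on more arrays. In the high fraction, GstD4 was not called without replicate 2 or 3 of 4% YE (adjusted p = 0.052 and 0.0606). In the low fraction, GstD4 was not called without replicate 2 or 3 of 4% YE (adjusted p = 0.078 and 0.0782), and GstD5 was not without replicate 2 of 0.25% YE, replicate 1 of 4% YE or replicate 3 of 4% YE (adjusted p = 0.0726, 0.0785 and 0.0661). The low-fraction call of GstD10 was lost without any of 9 arrays (adjusted p between 0.053 and 0.187). The arrays that could be left out were replicate 3 of the low fraction on 0.25% YE and replicate 1 of either fraction on 4% YE. Without replicate 1 of the low fraction on 0.25% YE, GstD10 stood at -1.91 there.

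**Figure D2:**
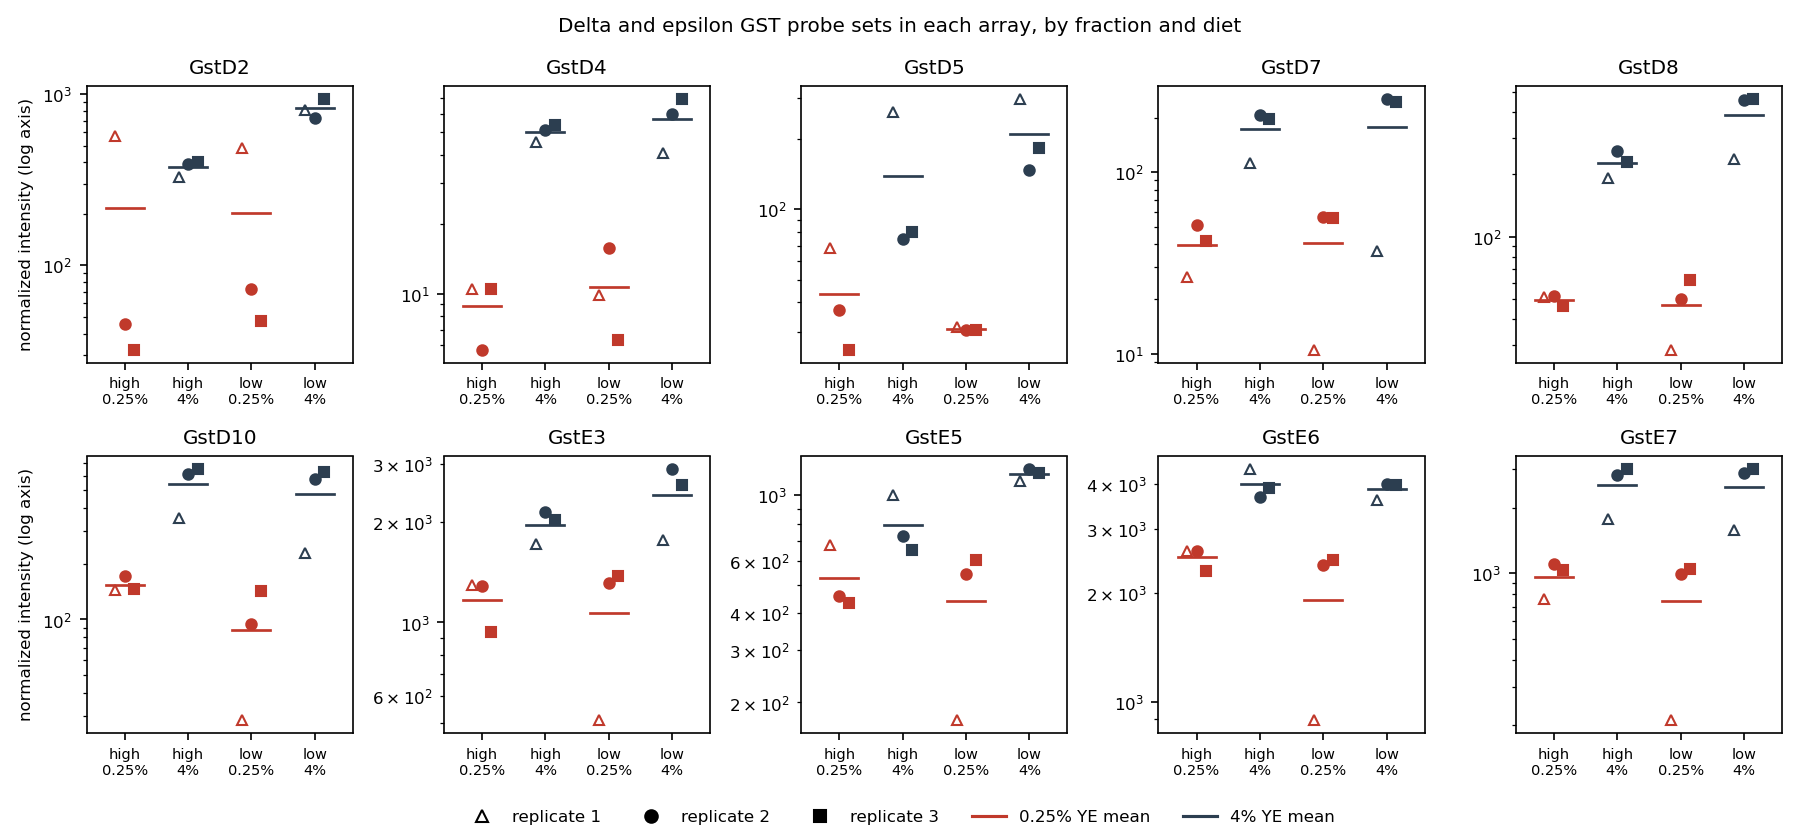
Normalized intensity (log axis) in each array for 6 delta and 4 epsilon genes, in the order high fraction on 0.25% YE, high fraction on 4% YE, low fraction on 0.25% YE and low fraction on 4% YE. Open triangles are replicate 1, circles replicate 2, squares replicate 3 and lines the group means. Values on 0.25% YE (red) lie below those on 4% YE (dark) for 9 of the genes in nearly all arrays, while GstD2 reads 569 and 486 in replicate 1 on 0.25% YE and at most 72.5 in the other arrays of that diet.

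GstD2 differed from its neighbours in that replicate 1 went against the other replicates. Its high-fraction values were 569, 45.4 and 32.1 on 0.25% YE, against 328, 390 and 403 on 4% YE. In the low fraction it read 486, 72.5 and 47.6 on 0.25% YE, against 807, 731 and 944 on 4% YE. Within replicate number 1 the averaged diet difference was 0.03, and within numbers 2 and 3 it was -3.19 and -3.94. The pooled difference of -2.37 ± 0.68 was not called (limma, adjusted p = 0.082). It was called with the number as a block (adjusted p = 0.023), without replicate 1 of the high fraction on 0.25% YE (-3.01, adjusted p = 0.0056), without replicate 1 of the low fraction on 0.25% YE (-2.87, adjusted p = 0.015) and without replicate 1 of all groups (-3.57, adjusted p = 1.6e-08).

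The other 4 tested delta genes were not called. GstD1, an abundant enzyme that can break down DDT, read 6621, 7511 and 6775 in the high fraction on 0.25% YE, against 8236, 7851 and 8454 on 4% YE. Its low fraction gave 3175, 5365 and 5905 on 0.25% YE, against 5061, 7341 and 7341 on 4% YE. The high fractions did not overlap, the low fractions did, and the averaged difference was -0.36 ± 0.15 (limma, adjusted p = 0.26). Without replicate 1 the GstD1 difference was -0.29 and was called (adjusted p = 0.0033).

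GstD9 read 803, 907 and 882 in the high fraction on 0.25% YE, against 984, 1047 and 1097 on 4% YE. Its low-fraction values were 337, 807 and 956 on 0.25% YE, against 905, 1233 and 1236 on 4% YE. The averaged GstD9 difference of -0.54 ± 0.23 was not called (limma, adjusted p = 0.27), and without replicate 1 it was -0.38 and was called (adjusted p = 0.0086). GstD11 was not called either way, and neither was the averaged GstD3 difference. Without replicate 1, GstD3 was called higher on 0.25% YE in the high fraction alone. The GstD3 high fraction held 542, 885 and 845 on 0.25% YE, against 438, 597 and 637 on 4% YE, and its low fraction 165, 464 and 611 on 0.25% YE, against 294, 523 and 436 on 4% YE. The values of GstD11 in the high fraction were 67.9, 45.3 and 64.4 on 0.25% YE, against 46.1, 54.1 and 40.4 on 4% YE, and in the low fraction 40.2, 71.2 and 102 on 0.25% YE, against 76.5, 76.2 and 98.6 on 4% YE. The diets overlapped for both genes in both fractions, with averaged differences of 0.13 ± 0.30 for GstD3 and -0.00 ± 0.22 for GstD11 (limma, adjusted p = 0.90 and 1.0). GstD6, which was not tested, had a mean of 9.32 over all arrays, was at background in the high fraction on both diets and exceeded its background only in single arrays of the low fraction.

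Of the epsilon genes called, GstE7 had the greatest difference. Its high-fraction values were 760, 1098 and 1036 on 0.25% YE, against 1774, 2835 and 3005 on 4% YE. The low fraction held 210, 987 and 1041 on 0.25% YE, against 1576, 2875 and 3009 on 4% YE. The diets did not overlap in either fraction, and replicate 1 was the dimmest array of each group. GstE7 fell by 1.68 ± 0.36 averaged (limma, adjusted p = 0.022). The differences by fraction were -1.37 ± 0.51 in the high fraction (adjusted p = 0.24) and -1.99 ± 0.51 in the low fraction (adjusted p = 0.12), and with the number as a block both were called (adjusted p = 0.034 and 0.0068). Leaving out replicate 2 or 3 of the high fraction on 4% YE (adjusted p = 0.0638 and 0.064) or replicate 2 or 3 of the low fraction on 4% YE (adjusted p = 0.0669 and 0.0619) ended the averaged call.

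GstE3 read 1291, 1286 and 936 in the high fraction on 0.25% YE, against 1725, 2140 and 2037 on 4% YE. Its low-fraction values were 508, 1313 and 1378 on 0.25% YE, against 1767, 2888 and 2585 on 4% YE. All arrays on 0.25% YE were below those on 4% YE of the same fraction, and GstE3 fell by 1.02 ± 0.24 averaged (limma, adjusted p = 0.033). The low-fraction difference of -1.28 ± 0.34 was called only with the number as a block (adjusted p = 0.13 without it and 0.043 with it). The averaged call was lost without any one of 7 arrays (adjusted p between 0.0566 and 0.101), which were replicates 2 and 3 of the high fraction on 0.25% YE, all 3 of the high fraction on 4% YE and replicates 2 and 3 of the low fraction on 4% YE.

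GstE6 had high-fraction values of 2618, 2622 and 2297 on 0.25% YE, against 4400, 3693 and 3913 on 4% YE. In the low fraction it read 890, 2386 and 2466 on 0.25% YE, against 3603, 4012 and 3989 on 4% YE. Again no array on 0.25% YE reached one on 4% YE, and the spread within groups was small except for replicate 1 of the low fraction on 0.25% YE. GstE6 fell by 0.91 ± 0.21 averaged (limma, adjusted p = 0.032). The call was lost without any one of 9 arrays, the 3 of the high fraction on 0.25% YE, the 3 of the high fraction on 4% YE and the 3 of the low fraction on 4% YE (adjusted p between 0.0517 and 0.0868).

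GstE5 read 682, 456 and 434 in the high fraction on 0.25% YE, against 1000, 727 and 653 on 4% YE. Its low fraction gave 174, 542 and 603 on 0.25% YE, against 1120, 1226 and 1188 on 4% YE. The high fractions overlapped through replicate 1 on 0.25% YE, and the low fractions did not overlap. GstE5 fell by 1.11 ± 0.28 averaged (limma, adjusted p = 0.047). That call was lost without any one of 9 arrays, which were replicates 2 and 3 of the high fraction and replicate 2 of the low fraction on 0.25% YE and all 6 on 4% YE (adjusted p between 0.0518 and 0.12). Without replicate 1 of all groups, GstE3, GstE5, GstE6 and GstE7 were all called (-0.97, -0.85, -0.68 and -1.49).

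GstE10 and GstE9 came close to the threshold. The high-fraction values of GstE10 were 228, 184 and 98.6 on 0.25% YE, against 346, 217 and 217 on 4% YE, and its low-fraction values 62.6, 179 and 175 on 0.25% YE, against 350, 409 and 351 on 4% YE. The low fractions of GstE10 did not overlap between diets and its high fractions did. GstE10 differed by -1.10 ± 0.29 averaged (limma, adjusted p = 0.055; 0.042 with the number as a block). It was called without replicate 1 of the high fraction on 0.25% YE (-1.23), without replicate 1 of the low fraction on 0.25% YE (-0.86) and without replicate 3 of the low fraction on 0.25% YE (-1.22). GstE9 read 3777, 3155 and 2838 in the high fraction on 0.25% YE, against 4787, 3793 and 4012 on 4% YE, and 1727, 3225 and 3375 in the low fraction on 0.25% YE, against 4338, 5155 and 4744 on 4% YE. The diets did not overlap for GstE9, and its averaged difference was -0.60 ± 0.16 (adjusted p = 0.059; 0.049 with the block). Without replicate 1 of the low fraction on 0.25% YE it was called at -0.44, and without replicate 3 of that group at -0.69. The dimmer probe set of GstE9 gave a greater difference, of -2.07 ± 0.34 averaged (limma, adjusted p = 0.0041) and -2.53 ± 0.48 in the low fraction (adjusted p = 0.025), so the probe sets of this gene had the same sign but not the same size.

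The other 7 epsilon genes were not called by diet. GstE1 read 2014, 2123 and 1815 in the high fraction on 0.25% YE, against 2171, 1995 and 2318 on 4% YE, and 463, 1491 and 1826 in the low fraction on 0.25% YE, against 1338, 2046 and 2009 on 4% YE. GstE11 had 352, 346 and 256 in the high fraction on 0.25% YE, against 476, 324 and 342 on 4% YE, and 131, 335 and 368 in the low fraction on 0.25% YE, against 442, 490 and 483 on 4% YE. For both genes the high fractions overlapped and replicate 1 of the low fraction on 0.25% YE was the lowest of the 12 arrays. The averaged differences were -0.42 ± 0.28 for GstE1 and -0.57 ± 0.24 for GstE11 (limma, adjusted p = 0.54 and 0.27).

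GstE12, the brightest epsilon probe set, had high-fraction values of 4480, 4360 and 3335 on 0.25% YE, against 5515, 4000 and 4187 on 4% YE, and low-fraction values of 2557, 4055 and 4470 on 0.25% YE, against 3938, 4640 and 4588 on 4% YE. GstE13 gave 529, 394 and 410 in the high fraction on 0.25% YE, against 483, 427 and 400 on 4% YE, and 319, 504 and 611 in the low fraction on 0.25% YE, against 612, 683 and 656 on 4% YE. Both lie apart from the epsilon cluster, and their averaged differences were -0.23 ± 0.15 for GstE12 and -0.24 ± 0.17 for GstE13 (limma, adjusted p = 0.52 and 0.58). In GstE13 the low fractions of the diets just failed to overlap, at 611 on 0.25% YE and 612 on 4% YE.

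Values of GstE2 and GstE4 were not lower on 0.25% YE in the high fraction. GstE2 had 195, 261 and 260 there on 0.25% YE, against 149, 200 and 226 on 4% YE, and in the low fraction 126, 292 and 258 on 0.25% YE, against 150, 304 and 313 on 4% YE. GstE4 had 254, 175 and 152 in the high fraction on 0.25% YE, against 112, 136 and 118 on 4% YE, and 61.9, 376 and 404 in the low fraction on 0.25% YE, against 193, 297 and 278 on 4% YE. The high fractions of GstE4 did not overlap and stood higher on 0.25% YE. Averaged, GstE2 differed by 0.07 ± 0.25 and GstE4 by 0.19 ± 0.39 (limma, adjusted p = 0.94 and 0.88), and without replicate 1 GstE4 was the single GST gene called higher (0.40, adjusted p = 0.018).

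GstE14, also known as noppera-bo, is needed for ecdysteroid synthesis in the prothoracic gland of the larva. Its high-fraction values were 31.1, 48.3 and 12.1 on 0.25% YE, against 37.3, 5.10 and 25.4 on 4% YE, and its low-fraction values 1.89, 44.3 and 51.4 on 0.25% YE, against 43.7, 46.2 and 61.6 on 4% YE. Single arrays of 3 of the 4 groups were below background, and the averaged difference of -0.42 ± 0.71 was not called (limma, adjusted p = 0.84).

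The classes shared with mammals had no call by diet with all arrays. Without replicate 1, GstO1 was called higher and GstT4 and GstZ2 lower on 0.25% YE in the high fraction. Of all probe sets, 11.5% were called higher there and 10.7% lower. Of the omega genes, GstO1 read 389, 463 and 473 in the high fraction on 0.25% YE, against 431, 329 and 351 on 4% YE, and 342, 473 and 502 in the low fraction on 0.25% YE, against 467, 476 and 484 on 4% YE. GstO2, which in flies glutathionylates a subunit of ATP synthase, had 1178, 739 and 398 in the high fraction on 0.25% YE, against 1769, 811 and 806 on 4% YE, and 453, 874 and 953 in the low fraction on 0.25% YE, against 956, 1107 and 931 on 4% YE. GstO3 had 2235, 1750 and 929 in the high fraction on 0.25% YE, against 2337, 1219 and 1211 on 4% YE, and 337, 1073 and 1393 in the low fraction on 0.25% YE, against 789, 1282 and 1068 on 4% YE. The diets overlapped for all 3 genes in both fractions, and the averaged differences were 0.06 ± 0.15, -0.52 ± 0.30 and -0.17 ± 0.35 in that order (limma, adjusted p = 0.90, 0.44 and 0.88).

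The sigma gene GstS1 gave 2899, 2004 and 1390 in the high fraction on 0.25% YE, against 3734, 1870 and 2194 on 4% YE, and 1419, 1804 and 1971 in the low fraction on 0.25% YE, against 1796, 2067 and 1841 on 4% YE. Its diets overlapped in both fractions, with an averaged difference of -0.23 ± 0.20 (limma, adjusted p = 0.67). Among the theta genes, GstT2 had 247, 296 and 249 in the high fraction on 0.25% YE, against 243, 219 and 236 on 4% YE, and 74.2, 243 and 247 in the low fraction on 0.25% YE, against 197, 265 and 266 on 4% YE. GstT3 had 836, 504 and 426 in the high fraction on 0.25% YE, against 1059, 499 and 671 on 4% YE, and 895, 773 and 759 in the low fraction on 0.25% YE, against 1068, 870 and 818 on 4% YE. For GstT2 the high fractions did not overlap, with 0.25% YE above 4% YE, while GstT3 overlapped in both fractions. The averaged differences were -0.18 ± 0.27 for GstT2 and -0.25 ± 0.21 for GstT3 (adjusted p = 0.82 and 0.65).

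GstT4 and GstT1 completed the theta class. GstT4 had 847, 1362 and 1001 in the high fraction on 0.25% YE, against 1506, 1636 and 1888 on 4% YE, and 170, 863 and 1200 in the low fraction on 0.25% YE, against 337, 966 and 910 on 4% YE. GstT1 had 883, 1264 and 1192 in the high fraction on 0.25% YE, against 1588, 1082 and 1291 on 4% YE, and 494, 641 and 782 in the low fraction on 0.25% YE, against 783, 833 and 783 on 4% YE. The high fraction of GstT4 and the low fraction of GstT1 did not overlap between diets, with 0.25% YE lower, and neither averaged difference was called (-0.46 ± 0.43 and -0.30 ± 0.16; limma, adjusted p = 0.69 and 0.41).

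The zeta genes lie side by side and are maleylacetoacetate isomerases by their class. GstZ1 read 190, 243 and 246 in the high fraction on 0.25% YE, against 338, 236 and 240 on 4% YE, and 26.5, 86.1 and 150 in the low fraction on 0.25% YE, against 170, 169 and 171 on 4% YE. GstZ2 read 137, 110 and 99.96 in the high fraction on 0.25% YE, against 177, 152 and 157 on 4% YE, and 161, 249 and 259 in the low fraction on 0.25% YE, against 219, 292 and 325 on 4% YE. GstZ1 was separated between diets in the low fraction and GstZ2 in the high fraction, both with 0.25% YE lower. The averaged differences were -0.76 ± 0.32 for GstZ1 and -0.41 ± 0.17 for GstZ2 (limma, adjusted p = 0.28 and 0.26), and without replicate 1 GstZ2 was called at the same size (-0.41, adjusted p = 0.012).

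Taken one fraction at a time, fewer genes passed. In the high fraction 2 of 33 genes were called, both lower (GstD4 and GstD8), where 1.76% of all probe sets were called and 1.23% were called lower. In the low fraction 4 of 33 were called, all lower (GstD4, GstD5, GstD8 and GstD10), where 0.968% of all probe sets were called and 0.870% were called lower. GstD4 is counted in both fractions, though its fall is partly built into its being tested. Apart from GstD4, only GstD8 was called in the high fraction. With the number as a block the counts in the high and the low fraction were 6 and 7, all lower, where 2.34% and 1.80% of all probe sets were called lower. Without replicate 1 they were 15 (13 lower) and 14 (14 lower), where 10.7% and 4.42% of all probe sets were called lower. The 2 called higher in the high fraction, GstD3 and GstO1, stood where 11.5% of all probe sets were. The arrays of the diets did not overlap, with 0.25% YE lower, for 13 genes in the high fraction (11.6% of all probe sets) and for 15 genes in the low fraction (8.21%). They did not overlap in the other direction for 2 genes in the high fraction (11.8% of all probe sets), GstE4 and GstT2, and for 0 in the low fraction (8.63%). For the means of both fractions in a gradient, 19 genes were separated with 0.25% YE lower (10.4%) and 0 the other way (11.0%).

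**Figure D3:**
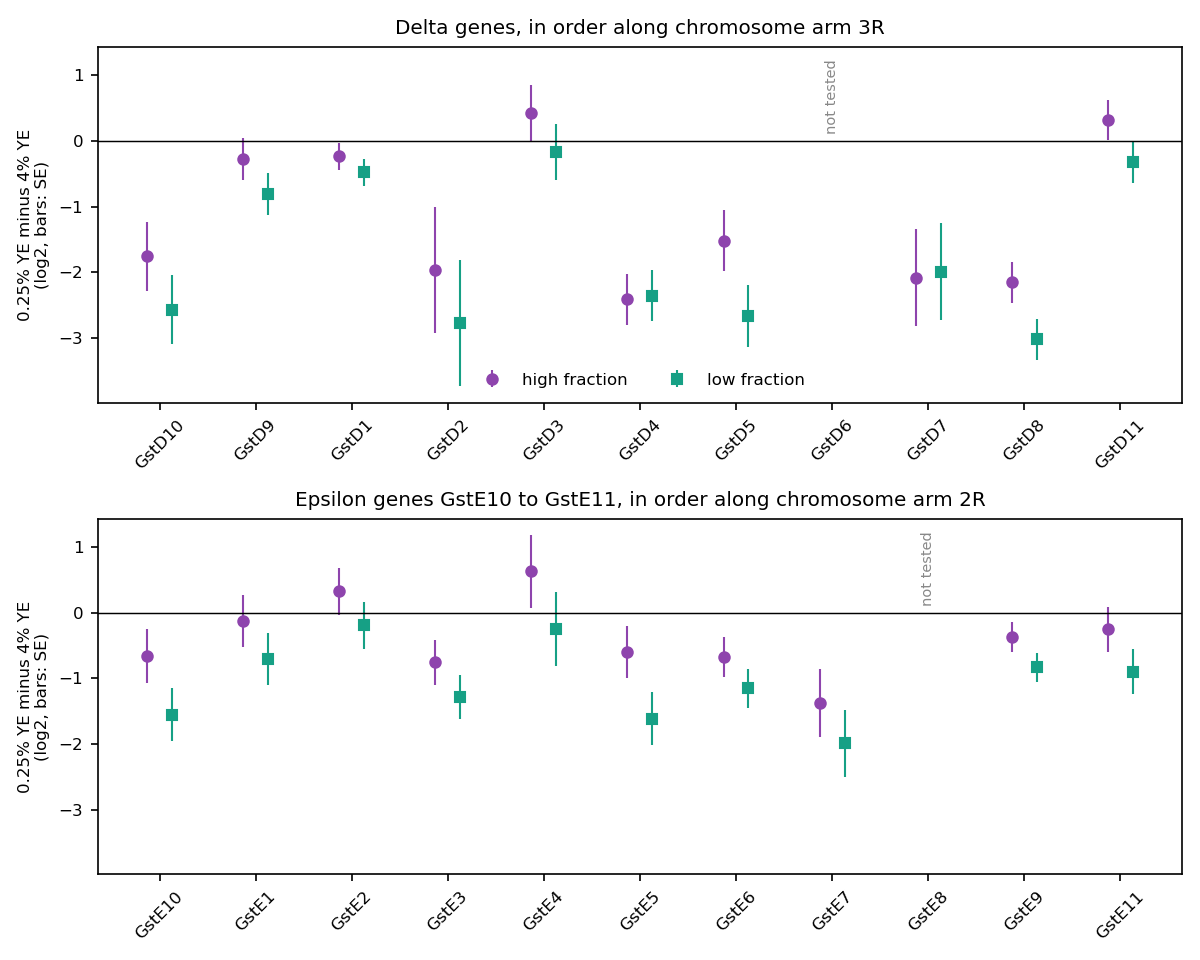
Diet difference (0.25% YE minus 4% YE, log2, bars for the SE) in the high fraction (circles) and the low fraction (squares) for the delta genes and for the clustered epsilon genes, each in their order along the chromosome. Both clusters hold large negative values, some of them in neighbouring genes, and values near 0. In most genes the low-fraction point lies below the high-fraction point. The points of GstD4 are fitted values of a gene at background on 0.25% YE.

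The genes that fell did not make up 1 unbroken stretch of either cluster. In the gene table of assembly Release 6 plus ISO1 MT the delta genes lie on chromosome arm 3R in the order GstD10, GstD9, GstD1, GstD2, GstD3, GstD4, GstD5, GstD6, GstD7, GstD8 and GstD11, with 1 other gene before GstD2 and 1 before GstD11. GstD10, at one end, fell, its neighbours GstD9 and GstD1 were not called, and GstD3 stood at 0.13 between GstD2 at -2.37 and GstD4. GstD4, GstD5, GstD7 and GstD8 all fell and GstD6, among them, was not tested. On arm 2R the epsilon genes run from GstE10 through GstE1, GstE2 and GstE3 and, after 2 other genes, from GstE4 to GstE9. GstE5, GstE6 and GstE7 are adjacent and all fell, while their neighbour GstE4 stood at 0.19. Whether the probes of one gene also bind the mRNA of a close relative was not tested.

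The placement of each mRNA was read from a translational index, the high fraction minus the low fraction on the log2 scale. A positive index marks an mRNA placed more among many ribosomes than other mRNAs are. On 0.25% YE the index was called for 3 of 33 genes, 2 higher (GstT1 and GstZ1) and 1 lower (GstZ2), where 21.4% of all probe sets were called, 9.66% higher and 11.8% lower. On 4% YE it was called for 2 genes, GstT1 higher and GstZ2 lower, where 34.2% of all probe sets were called, 16.3% higher and 17.9% lower. The median index was 0.32 for the GST genes on 0.25% YE, against 0.017 for all probe sets, and -0.15 on 4% YE, against 0.023 for all probe sets.

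GstT1 stood higher in the high than in the low fraction in all 6 gradients. Its values were 883, 1264 and 1192 in the high fraction on 0.25% YE, against 494, 641 and 782 in the low fraction, and 1588, 1082 and 1291 in the high fraction on 4% YE, against 783, 833 and 783 in the low fraction. The fractions did not overlap on either diet, and the index was 0.81 ± 0.23 on 0.25% YE and 0.71 ± 0.23 on 4% YE (limma, adjusted p = 0.026 and 0.03). The call on 0.25% YE was lost without replicate 2 or 3 of the high fraction on 0.25% YE (adjusted p = 0.116 and 0.0895) or replicate 1 or 2 of the low fraction on 0.25% YE (adjusted p = 0.0622 and 0.068). The call on 4% YE was lost without replicate 1 or 3 of the high fraction on 4% YE (adjusted p = 0.104 and 0.0768) or any 1 replicate of the low fraction on 4% YE (adjusted p between 0.0645 and 0.0855).

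The adjacent zeta genes went opposite ways. GstZ1 read 190, 243 and 246 in the high fraction on 0.25% YE, against 26.5, 86.1 and 150 in the low fraction, an index of 1.66 ± 0.46 (limma, adjusted p = 0.025). GstZ2 read 137, 110 and 99.96 in the high fraction on 0.25% YE, against 161, 249 and 259 in the low fraction, an index of -0.92 ± 0.24 (adjusted p = 0.02). The fractions did not overlap for either gene. On 4% YE the GstZ2 index was -0.76 ± 0.24 (adjusted p = 0.028), and that of GstZ1, 0.65 ± 0.46, was not called (adjusted p = 0.29) although its fractions did not overlap there either.

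Single arrays moved these calls. On 0.25% YE the call of GstZ1 was lost without replicate 2 or 3 of the high fraction (adjusted p = 0.0945 and 0.0792), and without replicate 1 of the low fraction its index was 0.98 and still called (adjusted p = 0.028). That of GstZ2 was lost without replicate 2 or 3 of the high fraction (adjusted p = 0.0811 and 0.0774) or replicate 2 of the low fraction (adjusted p = 0.073). On 4% YE it was lost without replicate 2 or 3 of the high fraction (adjusted p = 0.09 and 0.0799) or replicate 2 or 3 of the low fraction (adjusted p = 0.0813 and 0.109).

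**Figure D4:**
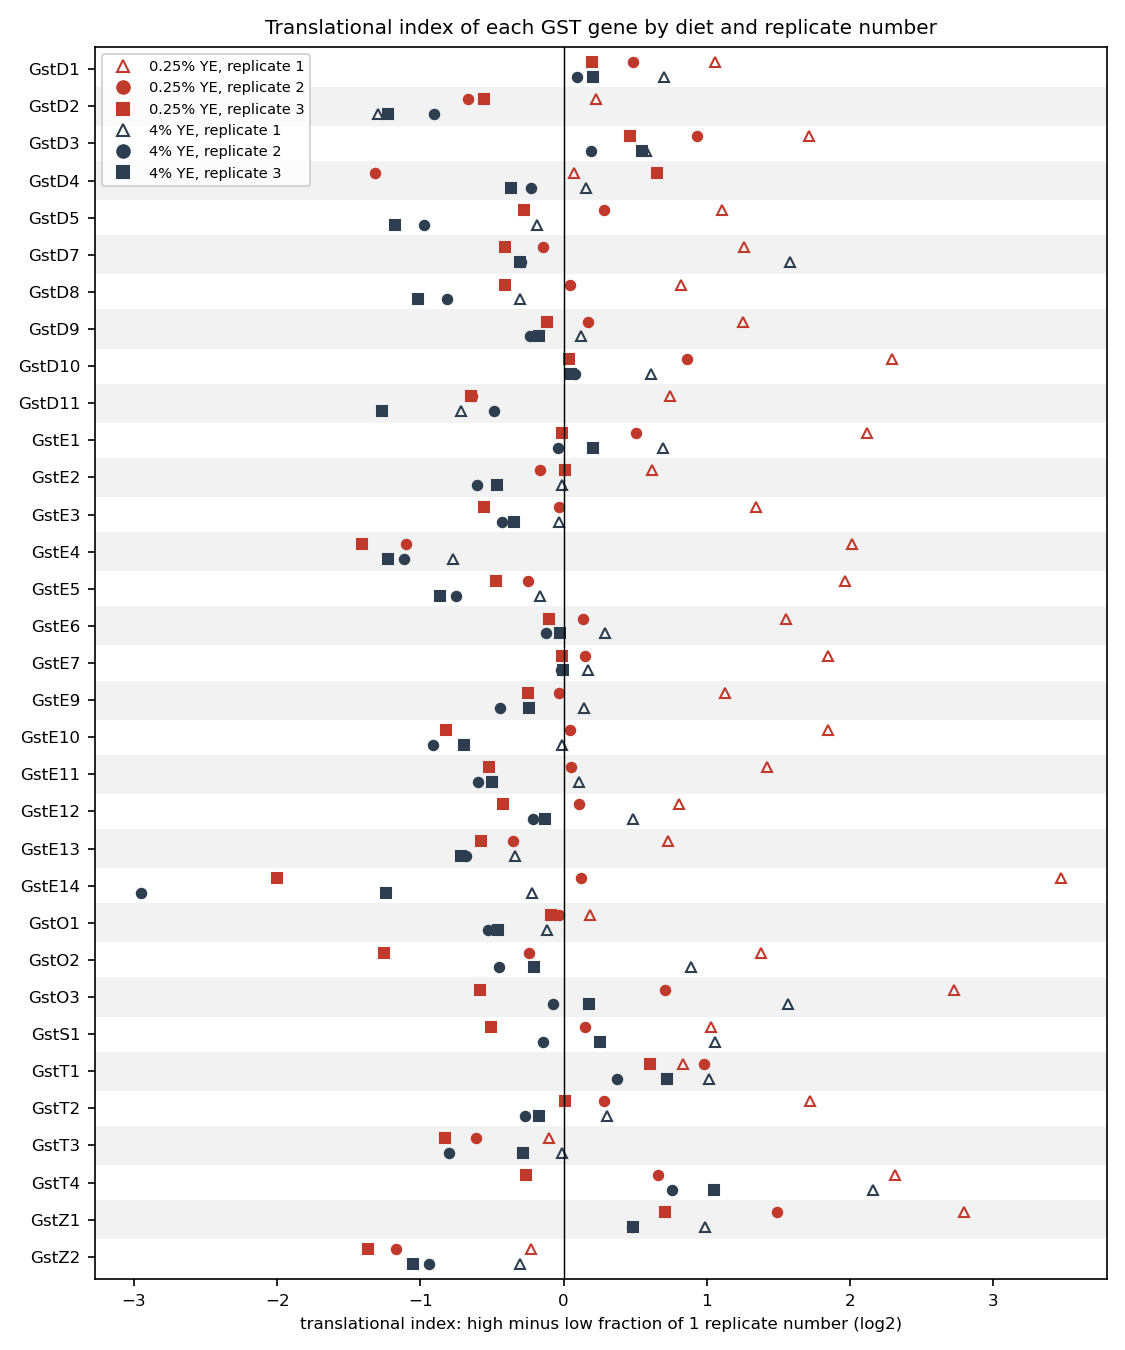
Translational index (high minus low fraction, log2) of each tested GST gene in each of the 6 gradients, with 0.25% YE in red above 4% YE in dark for each gene. Open triangles are replicate number 1, circles number 2 and squares number 3. The red triangles lie to the right of the other points for most genes, and their median is 1.26, against medians of 0.05 and -0.41 for numbers 2 and 3 on 0.25% YE.

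Replicate number 1 had the highest index of its diet for 31 of the 33 genes on 0.25% YE and for 31 on 4% YE (93.9%, against 43.5% and 43.7% of all probe sets). The median GST index by gradient was 1.26, 0.05 and -0.41 for numbers 1, 2 and 3 on 0.25% YE, against 0.14, -0.43 and -0.29 on 4% YE. Replicate 1 of the low fraction on 0.25% YE was the lowest of the 12 arrays for 25 of 33 genes (75.8%, against 19.5% of all probe sets). What sets replicate 1 apart was not tested.

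Without replicate 1 more indices were called and most were below 0. On 0.25% YE there were 12, 4 higher (GstD1, GstD3, GstT1 and GstZ1) and 8 lower (GstD2, GstD11, GstE4, GstE5, GstE13, GstO2, GstT3 and GstZ2), where 28.4% of all probe sets were called higher and 29.1% lower. The probe sets of GstO2 disagreed: with all arrays the dimmer one had an index of 0.84 ± 0.28 on 0.25% YE (limma, adjusted p = 0.04999, just called), and the brighter one -0.04 ± 0.42 (adjusted p = 0.96). On 4% YE there were 18, 2 higher (GstT1 and GstT4) and 16 lower, where 31.3% were called higher and 30.5% lower. Of the 16, 9 were epsilon genes, GstE14 among them with an array below background and so no exact index. The other 8 had indices between -0.34 for GstE9 and -1.17 for GstE4. The median index without replicate 1 was -0.16 on 0.25% YE and -0.33 on 4% YE. With the number as a block, 6 indices were called on 0.25% YE, adding GstD1, GstD3 and GstD10, all higher (adjusted p = 0.019, 0.011 and 0.028). On 4% YE 5 were, adding GstT4, higher, and GstD8 and GstD11, both lower (adjusted p = 0.024, 0.029 and 0.04). Those blocked counts stood where 34.9% and 45.4% of all probe sets were called.

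The change of the index between diets, the index on 0.25% YE minus that on 4% YE, was called for 0 of the 33 genes (limma), where 0.00888% of all probe sets were. No GST gene had an unadjusted p under 0.05 for it, against 484 of the 11261 probe sets, and the count was also 0 in the blocked fit (0.00888% of all probe sets) and without replicate 1 (0.0622%). The median change was 0.52 over the GST genes, against -0.020 over all probe sets, and 0.23 without replicate 1. Leaving out GstE14, whose arrays below background give no exact index, the greatest change was that of GstD5 at 1.15 ± 0.67. For GstD2 and GstO1 the 3 indices on 0.25% YE lay above the 3 on 4% YE, and for no gene below, where 10.0% of all probe sets were separated in the first direction and 7.64% in the second. For GstD2 they were 0.23, -0.66 and -0.56 on 0.25% YE, against -1.29, -0.90 and -1.23 on 4% YE.

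The diet difference could also be read within each replicate number, as the mean of both fractions on 0.25% YE minus that on 4% YE. It was below 0 for 31 of 33 genes in number 1, 26 in number 2 and 28 in number 3, where 46.1%, 45.3% and 45.7% of all probe sets were. For 24 genes it was below 0 in all 3 numbers (72.7%, against 20.9% of all probe sets). GstD8, GstD4 and GstD10 were below 0 in each.

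Other genes of glutathione metabolism were read from lists drawn up from general knowledge. Of 3 genes of glutathione synthesis and breakdown 0 were called by diet (averaged differences between -0.51 and -0.15), and Gclc, the catalytic subunit of the rate-limiting enzyme, stood at -0.22 ± 0.18 (limma, adjusted p = 0.64). Gclc had a positive index on both diets, of 0.87 ± 0.25 on 0.25% YE and 1.29 ± 0.25 on 4% YE (adjusted p = 0.031 and 0.0025). Of 6 genes of peroxide and disulphide reduction 0 were called by diet. Of 6 GST-related genes with other symbols 0 were, among them se, an omega enzyme of eye pigment synthesis (-0.52 ± 0.33), and Mgstl, the microsomal GST (-0.27 ± 0.18). Of 5 regulators 0 were, including cnc, the fly's Nrf2, which drives GST transcription (0.03 ± 0.23), and its inhibitor Keap1 (0.03 ± 0.19). Of 6 transporters of the multidrug resistance type 0 were called by diet, with a median of -0.25. The number of genes with an unadjusted limma p under 0.05 for the averaged difference was 1 in each of these lists but that of the GST-related genes, where it was 0.

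Markers of the tissues in which GSTs are known to be made were read beside the fall. Of 8 Malpighian tubule markers 1 was lower on 0.25% YE averaged, Oatp58Da, an organic anion transporter (-0.74 ± 0.16, limma, adjusted p = 0.02), and the median was -0.29. Their summed level was 3058 to 3729 in the high fraction on 0.25% YE, against 3811 to 4512 on 4% YE, and 1992 to 2421 in the low fraction on 0.25% YE, against 2082 to 2646 on 4% YE. Of 10 midgut markers 2 were lower, the amylase-like Amyrel (-2.81 ± 0.30, adjusted p = 0.00021) and the protease Jon25Bi (-1.69 ± 0.39, adjusted p = 0.03), and the median was 0.04. The midgut sum was 32470 to 35610 in the high fraction on 0.25% YE, against 34326 to 40055 on 4% YE, and 24417 to 35251 in the low fraction on 0.25% YE, against 28442 to 40493 on 4% YE.

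Of 4 fat body markers tested 1 was lower, Lsp2, a storage protein (-6.49 ± 0.54, limma, adjusted p = 3.1e-05). Their median was -0.16 and the highest difference 0.25. The sum of all 6 measured was 8412 to 11097 in the high fraction on 0.25% YE, against 16615 to 18762 on 4% YE, and 7109 to 8159 in the low fraction on 0.25% YE, against 11457 to 12522 on 4% YE, with Fbp1 and Fbp2 at background. No tubule or midgut marker was at background in any group. Of 13 testis markers 1 was higher on 0.25% YE averaged, with a median of 0.38. The testis sums were 15228 to 19259 in the high fraction on 0.25% YE, against 12230 to 16873 on 4% YE. In the low fraction they were 20256 to 26830 on 0.25% YE, against 14689 to 21401 on 4% YE. Of 10 accessory gland and 4 neuron and eye markers 0 were called by diet in limma. Of 7 muscle markers 1 was higher on 0.25% YE averaged, with a median of 0.56. The muscle sums were 12643 to 15717 in the high fraction on 0.25% YE, against 7350 to 9385 on 4% YE. In the low fraction they were 10621 to 14014 on 0.25% YE, against 8672 to 10903 on 4% YE. For the averaged difference, an unadjusted limma p under 0.05 was reached by 3 tubule, 5 midgut and 1 fat body markers. It was reached by 6 testis, 4 muscle, 1 neuron and eye and 0 accessory gland markers. Among all probe sets tested 1773 of 11261 reached it, and 4.13% were called. Markers of the female germline and yolk summed to 72 to 173 over all arrays, with 5 or 6 of 9 at background in each group. The part of these tissues in the GST differences was not tested.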

How the data were processed

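The authors deposited 1 intensity per probe set and array, from 12 Affymetrix Drosophila arrays hybridised with 100 ng of RNA each, per the labels' protocols. The way probes were summarised and any scaling were not given in the sources used here. Values were linear, some below 0, with array medians of 39.3 to 95.6, and 0 pairs of arrays were identical. No per-sample column was left unused (0). Of 18869 probe sets, 100 were controls.

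Because the medians differed, values were quantile-normalized over 12 arrays, floored at 0 and put on log2(value + 1). The 40% with the lowest mean (below 23.7) were left out, which left 11261 probe sets for 9494 named genes. A model with 1 mean per group (8 residual degrees of freedom, 4 without replicate 1) was fitted in R 4.3.3 with limma 3.58.1, lmFit and eBayes with an intensity trend, and each of 6 contrasts was tested two-sided with Benjamini-Hochberg adjustment over all probe sets. Symbols came from the platform annotation, updated through the gene id. The fit was checked on simulated data with independent errors for every array. That setting holds neither the correlation within gradients nor the departure of replicate 1. With 3 arrays per group, precision is limited by their number. A gene was at background in a group where no array exceeded its 95th percentile of control probe sets, which was 13.8 to 24.6.

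Replicate numbers were read off the titles, where the first 4% YE replicates carry none. After subtraction of group means, same-numbered arrays that share a diet or a fraction correlated at 0.166 to 0.669 (12 of 12 pairs), so the number was taken to pair samples. Differently numbered arrays ranged from -0.620 to 0.577 (24 pairs). Numbers 2 and 3 correlated across as strongly as within in some pairs (0.577 across and 0.390 within for replicate 2 of the high fraction on 4% YE), so a pairing of 2 apart from 3 is not shown. What it stands for is not given. The members and lists were chosen with earlier results of these data known. Values per array are given for every tested member, which includes those the naming rule picks, namely genes called, the brightest of each class and genes whose groups did not overlap. The planned promoter motifs and protein sequences were not used here.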

Additional observations from a re-analysis of the deposited data

How the results depend on the processing

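The alternatives were the values as deposited, median centring, a pseudocount of 16, no filter, leaving out the lowest 60%, the replicate block, the gradient as a random block (consensus correlation 0.256), no intensity trend and leaving out replicate 1 or any one array. A further one, chosen after seeing the data, scaled the arrays again without replicate 1. Of the 33 genes' results, 1 changed sign with a call: the GstE5 index on 0.25% YE, 0.42 and not called with all arrays, was -0.36 and called without replicate 1 and -0.36 after scaling again (-0.36 to 0.74 over all arrays left out). Counts in brackets below are calls over all probe sets tested, out of 11261 unless another number is given. The number of GST genes called by averaged diet difference, 9 (465), was 5 on values as deposited (158) and 4 with no filter (423 of 18769). It was 5 with the random block (271) and 16 without replicate 1 scaled again (2516). When arrays were left out it was between 4 and 16 (261 to 2508). With the paired fit (replicate block) it was 12 (881). In the high fraction the count of 2 (198) was 0 as deposited (41) and 1 without the lowest 60% (211 of 7508). It was 6 with the replicate block (476), 15 scaled again (2505) and 1 to 15 with arrays left out (61 to 2497). In the low fraction the count of 4 (109) was 1 as deposited (42), 7 with median centring (137) and 2 with no filter (101 of 18769). It was 2 without the lowest 60% (101 of 7508) and 7 with the replicate block (254). It was 14 scaled again (893) and 1 to 14 with arrays left out (45 to 896). Without the lowest 60%, 29 GST genes were tested. GstD4 and GstD5 were not among them, so their calls could not be made there. For the index on 0.25% YE the count of 3 (2412) was 6 with the replicate block (3932) and 5 with the random block (3561). It was 12 scaled again (6490) and 0 to 12 with arrays left out (752 to 6475). For the index on 4% YE the count of 2 (3846) was 1 as deposited (2403) and 5 with the replicate block (5107). It was 18 scaled again (6945) and 0 to 18 with arrays left out (2614 to 6953). The index change was called for 0 GST genes under every alternative tried.

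With the deposited values taken unscaled, the all-probe-set median moved to 0.41 for the index on 0.25% YE, 0.32 for the index on 4% YE and 0.18 for the averaged diet difference. Of 1583 indices called there on 0.25% YE 1460 were higher, against 1088 of 2412 after normalization. The averaged calls of GstD7, GstE3, GstE5 and GstE6 were lost on values as deposited (adjusted p = 0.105, 0.194, 0.290 and 0.166), as were the GstZ2 indices. The cause was not tested, except that no filter raises the number of probe sets tested to 18769 and leaving out arrays lowers the number of samples.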

Other observations

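2 other families of enzymes that process foreign molecules were read in the same way, without a test of the family. Of 81 cytochrome P450 genes, oxidases that often act before conjugation, 72 were bright enough to test. Averaged over fractions, 13 fell on 0.25% YE and 0 rose, with a median of -0.32. Without replicate 1 the counts were 28 lower and 4 higher, with a median of -0.24. Of 35 UDP-glycosyltransferase genes, which attach a sugar, 28 were tested, 7 fell and 0 rose, with a median of -0.48. Without replicate 1 the counts were 15 lower and 0 higher, with a median of -0.46. Among all probe sets tested 2.90% were called lower. Without replicate 1 10.4% were called lower and 11.9% higher. On 0.25% YE the index was called higher for 12 P450 genes and lower for 3 (median 0.29). For UDP-glycosyltransferase genes the counts were 2 and 0 (median 0.37). Of all probe sets 9.66% were called higher there and 11.8% lower. On 4% YE the index was called higher for 24 P450 genes and lower for 3 (median 0.42). For UDP-glycosyltransferase genes the counts were 5 and 1 (median 0.58). Of all probe sets 16.3% were called higher there and 17.9% lower.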
